A study of Mus musculus with 8 samples.

Results

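The 34 genes described here encode proteins of the lysosome or proteins that help make or regulate it. Of them, 8 encode proteins of its membrane and 9 encode glycosidases, other lumenal proteins and an enzyme partner. Another 3 encode transcription factors of the MiT/TFE family, and 14 encode subunits or accessory proteins of the vacuolar proton pump. The 34 genes were taken by symbol from a fixed list of names, and all were found once each among the 46983 genes of the table. All 34 had reads and passed the filter on low values, as did 22546 genes in all. RNA was sequenced from 8 libraries of mouse microglia, macrophages that live in the brain. The cells came from the corpus callosum, the large tract of myelinated fibres between the hemispheres.

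The genotype is given by the sample name and by a genotype field. By sample name, 4 libraries were Qk-KO and 4 were WT, numbered 1 to 4 in each group. Qk-KO stands for mice with both Qk alleles flanked by loxP sites (QKLoxP/LoxP), and WT for mice with 1 flanked allele and 1 unflanked allele (QKLoxP/+). Qk encodes the RNA-binding protein quaking. All mice, the WT ones included, carried Cx3cr1-CreER, a Cre recombinase that tamoxifen activates and that the Cx3cr1 locus drives in microglia and other cells of the myeloid lineage. All were FvB/C57BL6 hybrids, received tamoxifen at 8 weeks of age and then ate 0.2% cuprizone, which chelates copper and causes loss of oligodendrocytes and myelin, for 6 weeks. There was no group without cuprizone, so WT libraries are demyelinated controls, and none without Cre. The genotype field contradicts the name in 4 of the 8 libraries: it calls Qk-KO 1 and Qk-KO 3 WT, and it calls WT 2 and WT 3 Qk-KO. Groups below are by sample name unless the genotype field is stated, and the test of each gene was run on both. Nothing in the labels says that the libraries came from separate animals, so a p-value here reflects the spread among these 8 libraries alone, and that spread may be technical.

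Lysosomes break down material that a cell has engulfed or set aside for recycling. The V-ATPase, a rotary pump with a membrane-embedded V0 sector and a cytosolic V1 sector that hydrolyses ATP, acidifies the lumen, and most lysosomal hydrolases work at that low pH. In microglia, lysosomes digest myelin debris, and the loss of several of these enzymes causes storage disease of the brain. The factors Tfeb, Tfe3 and Mitf bind the E-box CACGTG and its extensions in promoters of many lysosomal genes.

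Because that E-box is the sequence these factors read, the promoters were searched for it. The windows came from RefSeq (build GRCm38.p6), span 250 bases before to 50 bases after each annotated start, and were found for 30 of the 34 genes. Atp6v0d2, Atp6v1b2, Atp6v1c1 and Atp6v1h had no entry. The motif CACGTG, a palindrome and therefore the same on both strands, occurred in promoters of 10 of the 30 genes (33.3%), against 8.09% of 27025 genes with a promoter entry and 7.15% of all 32851 promoters. Its extension TCACGTGA, also a palindrome and always containing CACGTG, occurred in 6 of the 30 genes (20%), against 1.12% of genes and 0.974% of promoters. The longer palindrome formed by TCACGTGA with G before it and C after it occurred in 0 of the 30 genes, against 0.37% of genes. These are matches of letters and carry no information on binding in these cells.

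The promoters that held CACGTG more than once without its extension and those with the extended motif are shown, each 5′ to 3′ on the strand of its gene, with the motif in capitals. Capitals mark CACGTG in the 100 bases before the start of Lamp1 (chr8:13159061-13159160, plus strand), which hold it 4 times, and of Atp6v0b (chr4:117887330-117887429, minus strand), which hold it 2 times.
Lamp1: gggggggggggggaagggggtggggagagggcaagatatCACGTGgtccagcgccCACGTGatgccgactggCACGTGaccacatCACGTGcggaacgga
Atp6v0b: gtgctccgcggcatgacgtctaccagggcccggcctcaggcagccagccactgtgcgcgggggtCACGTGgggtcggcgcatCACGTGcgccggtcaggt
In the 30-base windows that follow, capitals mark TCACGTGA. They lie at chr8:3500462-3500491 (Mcoln1, plus strand), chr17:25240120-25240149 (Gnptg, minus strand), chrX:134601215-134601244 and chrX:134601182-134601211 (Gla, minus strand), chr8:105566050-105566079 (Atp6v0d1, minus strand), chr17:26676387-26676416 (Atp6v0e, plus strand) and chr16:44139373-44139402 (Atp6v1a, minus strand).
Mcoln1: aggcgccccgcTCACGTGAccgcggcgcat
Gnptg: ccggctgtcacTCACGTGAccgtgagaccc
Gla, first match: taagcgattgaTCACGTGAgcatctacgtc
Gla, second match: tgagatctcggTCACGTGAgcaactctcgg
Atp6v0d1: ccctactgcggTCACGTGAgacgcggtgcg
Atp6v0e: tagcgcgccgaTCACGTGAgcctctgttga
Atp6v1a: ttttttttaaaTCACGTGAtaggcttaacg
The extended motif straddles the annotated start of Atp6v0d1, lies 3 to 10 bases after the start of Atp6v0e, and lies at -132 to -125 in Atp6v1a. These positions count from RefSeq starts. In the GENCODE annotation, used for gene spans below, the Mcoln1, Atp6v0e and Atp6v1a windows lie inside the gene. All 30 bases of the Mcoln1, Atp6v0e and both Gla windows lie in a GENCODE exon, counting exons of any gene. The Gla windows lie outside the span of Gla, so the exon there belongs to another gene. Besides Lamp1 and Atp6v0b, Glb1 and Naglu held CACGTG without the extension. Mcoln1 held a further CACGTG at -71 to -66, outside the window shown.

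Values per library are regularized log2 values, depth-scaled and drawn towards the gene's mean where reads are few. Differences are Qk-KO minus WT on that scale. By name, none of the 34 genes passed limma's test at an adjusted p of 0.05, where 1 of 22546 genes passed (0.00444%), and the smallest adjusted p among them was 0.493. At an unadjusted p under 0.05, 3 of the 34 were higher in Qk-KO (background 3.76% of genes) and 4 were lower (background 4.5%). In the authors' deposited table, 32 of the 34 have an adjusted p, and 0 of the 32 lie under 0.05 against 1.22% of 14150 genes (smallest 0.237). That deposited table has 2 of them higher and 4 lower at an unadjusted p under 0.05, against 5.67% and 4.98% of its genes.

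The intervals bound how large a difference these libraries allow. The 95% interval of the difference lay within ±0.5 on the log2 scale for 30 of the 34 genes and within ±1 for 33, with a median half-width of 0.14. The 4 genes with wider reach were Gla, Gnptg, Atp6v0c and Atp6v0d2. Within a group, the libraries differed little: the median SD was 0.09 for the 34 genes and 0.10 for the 5497 genes whose mean signal was at least that of the lowest of the 34. The difference was above 0 for 13 genes and below 0 for 21, with a median of -0.02. That median was -0.0044 over all genes tested and 0.02 over the 5497 genes of like level. Regardless of sign, the median difference was 0.11 for the 34 genes, 0.08 for those 5497 and 0.11 for all genes tested. Below 0 were 51.2% of all genes tested and 43% of the 5497 genes of like level. With each library centred on its median, which moves the median of all genes to 0.07, the count below 0 was 12 of 34, against 33% of all genes tested.

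**Figure D1:**
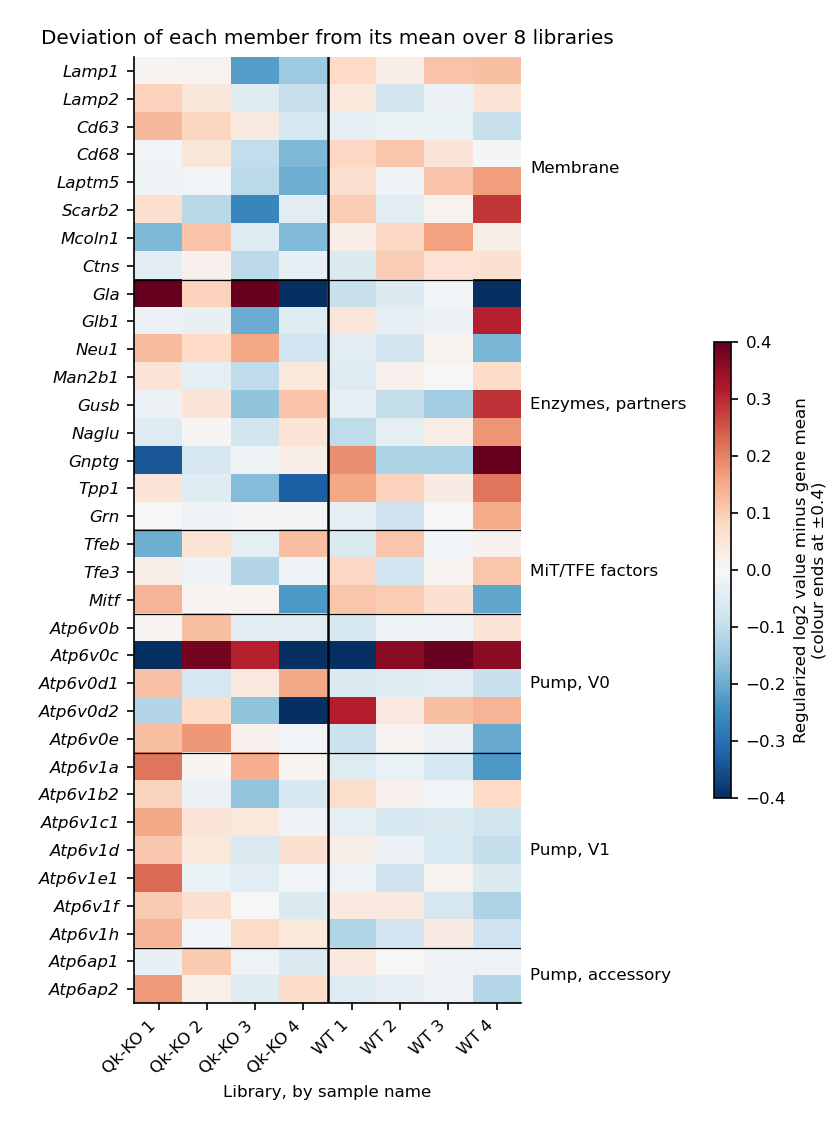
Deviation of each of the 34 genes (rows, ordered by role) from its mean over the 8 libraries (columns, Qk-KO left of WT) on the regularized log2 scale, red above and blue below the mean. Atp6v0c splits the libraries into 3 low and 5 high, Gla has its lowest values in Qk-KO 4 and WT 4, and the V1 rows are reddest in Qk-KO 1.

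Depth and the summed microglial markers separated the named groups. Size factors recovered from the table were 0.753 to 0.997 in Qk-KO libraries and 1.05 to 1.26 in WT libraries, about 43.9 to 58.5 M reads in Qk-KO and 59.7 to 69.7 M reads in WT, where M stands for mega. The summed level of 8 microglial markers was 19.47 to 19.71 in Qk-KO and 19.78 to 19.92 in WT on the log2 scale, with 7 of the 8 lower and 3 of them called lower in the authors' deposited table. These markers were the top list by summed TPM, so the label microglia held. None of the other lists had a marker without reads. The 6 astrocyte markers were all lower in Qk-KO (median difference -0.95; summed level 12.20 to 14.77 in Qk-KO and 13.48 to 14.88 in WT). The 5 red cell markers were also all lower (median -0.67; 12.73 to 13.98 in Qk-KO and 13.65 to 14.51 in WT). So were all markers of monocytes, neutrophils, oligodendrocytes, their precursors, neurons, and mural cells and fibroblasts. The lists for border-associated macrophages, endothelium, T and NK cells and B cells had markers in both directions. Of the 6 border-associated macrophage markers, 1 was called higher in the authors' deposited table. In every list but the microglial one, the summed levels of the 2 groups overlapped. The part of depth and of the markers in the differences below was not tested. In bulk RNA, fewer cells of a type and less RNA per cell cannot be told apart. Qk itself had 15.59, 15.40, 15.69 and 15.29 in Qk-KO libraries 1 to 4, against 15.50, 15.38, 15.41 and 15.37 in WT libraries 1 to 4, with overlapping groups; without the position of the loxP sites, the gene's total does not check the labels.

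The membrane genes held some of the most abundant transcripts of the list. Per length, as TPM computed from the authors' mean signal and union exon length, the range was 9.69 for Mcoln1 to 1007 for Cd68, a heavily glycosylated protein of macrophage lysosomes, with Lamp1 at 728 and Laptm5 at 712. By the longest coding transcript the highest was the secreted and lysosomal glycoprotein gene Grn at 1145. Of the 8 membrane genes, 7 had differences below 0 and 1, Cd63, above, with a median of -0.13; none passed the limma test. That count was 7 after quantile normalization, 6 after median centring, and 4 by the genotype field.

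Lamp1, which encodes a heavily glycosylated protein lining the lysosomal membrane (mm10 chr8:13159161-13175338), had 16.28, 16.28, 16.05 and 16.12 in Qk-KO libraries 1 to 4, against 16.35, 16.29, 16.38 and 16.39 in WT libraries 1 to 4. Every Qk-KO value was below every WT value, the nearest pair, Qk-KO 2 and WT 2, by 0.01, and Qk-KO 3 and Qk-KO 4 were the lowest. The mean was 16.18 ± 0.12 in Qk-KO and 16.35 ± 0.04 in WT (SD, n = 4 each), a difference of -0.17 (SE 0.06, 95% interval -0.31 to -0.03; limma adjusted p 0.542). Lamp1 was the only 1 of the 34 genes whose Qk-KO libraries all lay below the WT libraries (background 2.7% of all genes tested, 3.98% of genes of like level). By the genotype field its difference was 0.0049.

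Lamp2, its relative, which also serves chaperone-mediated autophagy through 1 of its isoforms, had 14.91, 14.86, 14.77 and 14.72 in Qk-KO libraries 1 to 4, against 14.86, 14.74, 14.79 and 14.87 in WT libraries 1 to 4. The groups overlapped throughout, and the difference was -0.0017 (95% interval -0.13 to 0.13). Laptm5, a lysosomal transmembrane protein of blood and immune cells that was added to the named genes after its values were seen, had 16.72, 16.73, 16.63 and 16.54 in Qk-KO libraries 1 to 4, against 16.80, 16.73, 16.85 and 16.91 in WT libraries 1 to 4. Only WT 2 lay inside the Qk-KO range, and the difference was -0.17 (SE 0.06, 95% interval -0.30 to -0.03; limma adjusted p 0.527).

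Cd68 had 15.64, 15.70, 15.55 and 15.47 in Qk-KO libraries 1 to 4, against 15.73, 15.76, 15.70 and 15.64 in WT libraries 1 to 4. The Qk-KO libraries 3 and 4 were lowest, the other libraries overlapped, and the difference was -0.12 (SE 0.06, 95% interval -0.25 to 0.01; limma adjusted p 0.642). Ctns, which exports cystine from the lysosome, had 11.51, 11.57, 11.45 and 11.52 in Qk-KO libraries 1 to 4, against 11.50, 11.65, 11.61 and 11.61 in WT libraries 1 to 4. Its groups overlapped, with a difference of -0.08 (SE 0.05, 95% interval -0.20 to 0.04; limma adjusted p 0.703). The other 3 differed by -0.18 for Scarb2, the receptor that carries glucocerebrosidase to the lysosome, by -0.15 for the calcium channel gene Mcoln1 and by 0.09 for the tetraspanin gene Cd63. A pseudogene copy of Cd63, 98.5% identical over 812 bases, is counted separately in the table at a mean signal of 85.5.

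**Figure D2:**
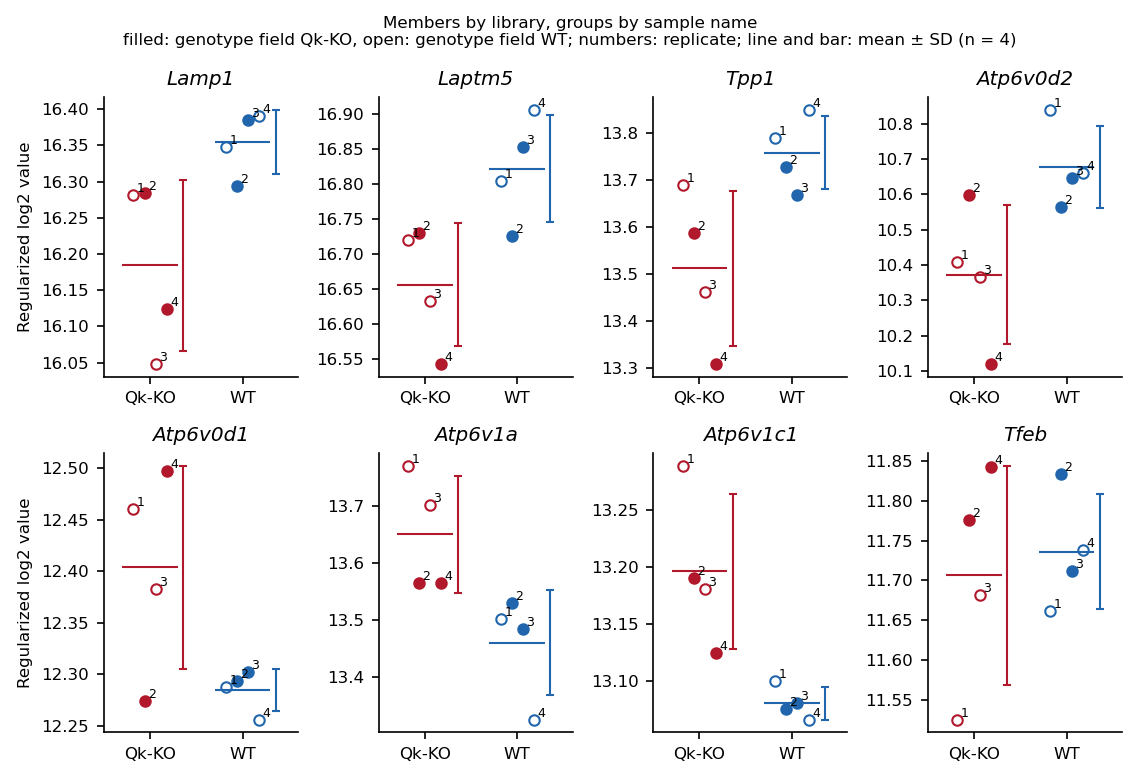
Regularized log2 values (vertical axes, scaled separately) of 8 genes in the Qk-KO libraries (left, red) and the WT libraries (right, blue), with mean ± SD and n = 4 each; filled points have the genotype field Qk-KO and open points WT. Lamp1 was lower and Atp6v1a and Atp6v1c1 were higher in all Qk-KO libraries than in all WT libraries, and none of the 8 passed the adjusted test.

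Among the 9 enzymes and partners, 2 differences were above 0 and 7 below, with a median of -0.02, and none passed the limma test. After median centring 3 lay below 0, and after quantile normalization 6. Their levels ran between 18.1 TPM for Gnptg and 891 TPM for Grn. WT 4 was the highest library for 7 of the 9, against 10.7% of genes of like level. Gla and Neu1 were the 2 exceptions, and WT 4 was the lowest library for both.

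Tpp1, a serine protease that trims tripeptides off proteins, had 13.69, 13.59, 13.46 and 13.31 in Qk-KO libraries 1 to 4, against 13.79, 13.73, 13.67 and 13.85 in WT libraries 1 to 4. Qk-KO 1 alone lay above the lowest WT library, Qk-KO 4 was the lowest of all, and the groups overlapped. The difference was -0.25 (SE 0.08, 95% interval -0.43 to -0.06; limma adjusted p 0.493), the lowest among the enzymes, and -0.12 by the genotype field. The authors' deposited table gives a log2 fold change of -0.24 and an adjusted p of 0.237.

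Gla, the X-linked gene of α-galactosidase A (mm10 chrX:134588149-134601125), had 12.72, 12.31, 12.66 and 11.80 in Qk-KO libraries 1 to 4, against 12.13, 12.16, 12.21 and 11.75 in WT libraries 1 to 4. Qk-KO 1 and Qk-KO 3 stood highest, Qk-KO 4 and WT 4 lowest and the other 4 libraries between them, so the groups overlapped. The difference was the largest above 0 of the list, 0.31 (SE 0.20, 95% interval -0.15 to 0.77; limma adjusted p 0.703); by the genotype field it was -0.20. Xist, the noncoding RNA of the inactive X chromosome, had 15.90, 14.72, 15.55 and 13.24 in Qk-KO libraries 1 to 4, against 14.61, 14.74, 14.59 and 13.55 in WT libraries 1 to 4. The same 2 libraries were highest, the same 2 lowest and the same 4 between. The other 4 X-linked genes, Lamp2, Tfe3, Atp6ap1 and Atp6ap2, ranged by 0.19, 0.23, 0.16 and 0.28 over the 8 libraries, against 0.96 for Gla.

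Gnptg, a subunit of the Golgi enzyme that starts the mannose phosphate tag for sorting hydrolases, had 10.34, 10.61, 10.66 and 10.71 in Qk-KO libraries 1 to 4, against 10.86, 10.55, 10.55 and 11.14 in WT libraries 1 to 4. WT 4 was highest and Qk-KO 1 lowest, with the others mixed, and the difference was -0.20 (SE 0.14, 95% interval -0.52 to 0.11; limma adjusted p 0.711). Its exons overlap those of Unkl on the opposite strand, whose mean signal was 63.8% of that of Gnptg; no source used here gives the strandedness, so the 2 genes' reads cannot be told apart.

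Neu1, the lysosomal sialidase, differed by 0.14 and Glb1, β-galactosidase, by -0.15, with limma adjusted p of 0.628 and 0.662 and 95% intervals that include 0. Exons of Glb1 overlap those of Tmppe on the same strand, at 22.2% of its signal. Man2b1, Gusb, Naglu and Grn, the genes of α-mannosidase, β-glucuronidase, α-N-acetylglucosaminidase and progranulin, differed by -0.02, -0.01, -0.03 and -0.01. For Grn the 4 Qk-KO libraries spread with an SD of 0.0052 and the 4 WT libraries with an SD of 0.10, of which WT 4 was the highest. Glb1 and Grn have no p in the authors' deposited table.

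The 3 MiT/TFE factors, which switch on lysosomal and autophagy genes, were expressed at 14.7 TPM (Tfeb), 18.0 TPM (Tfe3) and 20.1 TPM (Mitf), and all 3 differences by name were below 0 but small. After median centring, which left 33% of all genes tested below 0, all 3 were above 0. Tfeb had 11.53, 11.78, 11.68 and 11.84 in Qk-KO libraries 1 to 4, against 11.66, 11.83, 11.71 and 11.74 in WT libraries 1 to 4. By name its groups overlapped throughout, with a difference of -0.03 (SE 0.07, 95% interval -0.20 to 0.14; limma adjusted p 0.928). By the genotype field Tfeb had the smallest unadjusted p of the 34, 0.0523 in limma, which did not pass adjustment, with a difference of 0.14 (95% interval -0.0017 to 0.28).

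Tfe3 had 12.75, 12.71, 12.61 and 12.71 in Qk-KO libraries 1 to 4, against 12.81, 12.65, 12.73 and 12.83 in WT libraries 1 to 4. The groups were interleaved, with a difference of -0.06 (SE 0.06, 95% interval -0.19 to 0.07; limma adjusted p 0.781). Mitf had 12.44, 12.31, 12.32 and 12.07 in Qk-KO libraries 1 to 4, against 12.41, 12.40, 12.36 and 12.09 in WT libraries 1 to 4. In both groups library 4 was the lowest, at 12.07 in Qk-KO and 12.09 in WT, and the difference between the groups was -0.03 (SE 0.10, 95% interval -0.25 to 0.18; limma adjusted p 0.938). These factors are also known to be controlled by movement between cytoplasm and nucleus, which RNA does not measure.

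Of the 14 proton pump genes, 10 had differences above 0 and 4 below, with a median of 0.07, and none passed the limma test. The count above 0 was 11 after median centring and 9 after quantile normalization. Of all genes tested, only 33% lay below 0 after median centring and 47.4% after quantile normalization. Leaving out Atp6v0c, which is described below, the count was 10 above and 3 below. By sector, 3 of 5 V0 genes, 6 of 7 V1 genes and 1 of 2 accessory genes were above 0. By the genotype field these counts were 6 of 14 for the pump and 1 of 7 for V1, and after quantile normalization 12 of 14 and 6 of 7. The V1 count of 6 of 7 by name was the same with each library left out in turn, after median centring and after quantile normalization.

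The extreme values of the pump genes lay often in the same libraries. Qk-KO 1, which the genotype field calls WT, had the highest value for 7 of 7 V1 genes and for 8 of 14 pump genes, against 27.4% of genes of like level. WT 4 had the lowest value for 7 of 14 pump genes, against 25.3% of genes of like level. Genes of 1 complex measured in 1 library are not independent. Without Qk-KO 1 the V1 count above 0 by name was 6 of 7, and by the genotype field it was also 6 of 7, with 12 of 14 pump genes above 0.

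In V1, Atp6v1a encodes the catalytic A subunit that hydrolyses ATP (mm10 chr16:44085402-44139705). It had 13.77, 13.56, 13.70 and 13.57 in Qk-KO libraries 1 to 4, against 13.50, 13.53, 13.48 and 13.33 in WT libraries 1 to 4. All Qk-KO values lay above all WT values, with Qk-KO 1 highest and WT 4 lowest. The mean was 13.65 ± 0.10 in Qk-KO and 13.46 ± 0.09 in WT (SD, n = 4 each), a difference of 0.19 (SE 0.07, 95% interval 0.04 to 0.34; limma adjusted p 0.52). The authors' deposited table gives a fold, Qk-KO over WT, of 1.14 and an adjusted p of 0.278. By the genotype field the difference was -0.04.

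Atp6v1c1, the C subunit that takes part in joining V1 to V0, was named after its values were seen. It had 13.29, 13.19, 13.18 and 13.12 in Qk-KO libraries 1 to 4, against 13.10, 13.07, 13.08 and 13.07 in WT libraries 1 to 4. The 4 WT libraries lay within 0.04 of each other and below all Qk-KO libraries, and the difference was 0.12 (SE 0.05, 95% interval 0.01 to 0.23; limma adjusted p 0.586). Atp6v1a and Atp6v1c1 were the 2 of 34 genes whose Qk-KO libraries all lay above the WT libraries (background 3.04% of all genes tested, 5.55% of genes of like level).

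Atp6v1h, the H subunit that couples V1 activity to V0, had the lowest level per length, 5.26 TPM by union exon length; by the longest coding transcript it stood at 21.7 TPM, and Atp6v0d2 was lowest at 12.5 TPM. It had 11.16, 11.02, 11.10 and 11.07 in Qk-KO libraries 1 to 4, against 10.90, 10.95, 11.06 and 10.94 in WT libraries 1 to 4. WT 3 alone reached into the Qk-KO range, and the difference was 0.12 (SE 0.06, 95% interval -0.0046 to 0.25; limma adjusted p 0.615). The stalk subunit genes Atp6v1d, Atp6v1e1 and Atp6v1f differed by 0.08, 0.07 and 0.06. The nucleotide-binding B subunit gene Atp6v1b2 differed by -0.08, the only V1 gene below 0.

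In V0, the d subunit sits on the rotor and has a general form, d1, and a form known from osteoclasts and macrophages, d2. Atp6v0d1 stood at 71.4 TPM and Atp6v0d2 at 13.5 TPM. Atp6v0d2 (mm10 chr4:19876841-19922605) had 10.41, 10.60, 10.37 and 10.12 in Qk-KO libraries 1 to 4, against 10.84, 10.56, 10.65 and 10.66 in WT libraries 1 to 4. Qk-KO 2 alone lay inside the WT range and Qk-KO 4 was lowest. The difference was -0.30 (SE 0.10, 95% interval -0.53 to -0.07; limma adjusted p 0.493), the lowest of the 34, and -0.09 by the genotype field. The authors' deposited table gives a fold, Qk-KO over WT, of 0.81 and an adjusted p of 0.237.

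Atp6v0d1 had 12.46, 12.27, 12.38 and 12.50 in Qk-KO libraries 1 to 4, against 12.29, 12.29, 12.30 and 12.26 in WT libraries 1 to 4. The WT libraries lay within 0.05 of each other, Qk-KO 2 among them, while Qk-KO 1, 3 and 4 were higher. The difference was 0.12 (SE 0.06, 95% interval -0.01 to 0.25; limma adjusted p 0.633). Subtracting the log2 value of d1 from that of d2 gave -2.05, -1.68, -2.02 and -2.38 in Qk-KO libraries 1 to 4, against -1.45, -1.73, -1.66 and -1.60 in WT libraries 1 to 4. Qk-KO 2 again lay within the WT range, and the other 3 Qk-KO libraries lay below it; this difference of log2 values is not corrected for gene length and was not tested.

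Atp6v0e, the small e subunit, had 11.86, 11.91, 11.76 and 11.73 in Qk-KO libraries 1 to 4, against 11.65, 11.75, 11.71 and 11.54 in WT libraries 1 to 4. Qk-KO 4 lay below WT 2 and the other Qk-KO libraries above all WT libraries, with a difference of 0.15 (SE 0.07, 95% interval 0.0023 to 0.30; limma adjusted p 0.6). Atp6v0b, a subunit of the proton-carrying ring, differed by 0.02. The accessory genes Atp6ap1 and Atp6ap2, which help the pump assemble, differed by -0.0011 and 0.11.

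Atp6v0c, the main subunit of the proton-carrying ring, was named after its values were seen. It had 13.30, 14.21, 14.13 and 13.16 in Qk-KO libraries 1 to 4, against 13.20, 14.18, 14.22 and 14.18 in WT libraries 1 to 4. The libraries fell into 3 low ones, Qk-KO 1, Qk-KO 4 and WT 1, at 13.16 to 13.30, and 5 high ones at 14.13 to 14.22. Neither the names nor the genotype field divide the libraries this way. A gap of 0.84 or more between 2 sets of libraries that also exceeds the remaining spread occurred in 41 of 5497 genes of like level (0.746%). The group difference was -0.24 (SE 0.33, 95% interval -1.01 to 0.52; limma adjusted p 0.86), with the widest interval of the 34.

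Close copies and neighbours of Atp6v0c were read for the same libraries. A processed pseudogene on chromosome 6 (mm10 chr6:37806086-37806550), 99.8% identical to Atp6v0c over 465 aligned bases, had 11.43, 11.26, 11.20 and 11.24 in Qk-KO libraries 1 to 4, against 11.17, 11.13, 11.23 and 11.21 in WT libraries 1 to 4. It did not split the libraries into the same low and high sets. Its mean signal of 2410 shows reads assigned to it, and no source used here says how reads were divided between near-identical copies, so the level of Atp6v0c is uncertain. The neighbouring genes Amdhd2 and Tbc1d24 ranged by 0.22 and 0.34 over the 8 libraries. Gm15590, a pseudogene of ferritin light chain, is neither a copy nor a neighbour of Atp6v0c. Its position is mm10 chr17:6131854-6132405, and that of Atp6v0c is chr17:24163866-24169702. Gm15590 was named outside the lists, and its values are not read as support for the split of Atp6v0c. It had 6.61 to 7.50 in Qk-KO 1, Qk-KO 4 and WT 1 and 11.12 to 11.46 in the other 5. It too has near-identical copies, 1 of them 99.5% identical over 552 bases with a mean signal of 7580. That copy was low in another library, WT 3, at 9.69. How reads were divided between these copies is unknown, so the level of Gm15590 is uncertain as well.

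**Figure D3:**
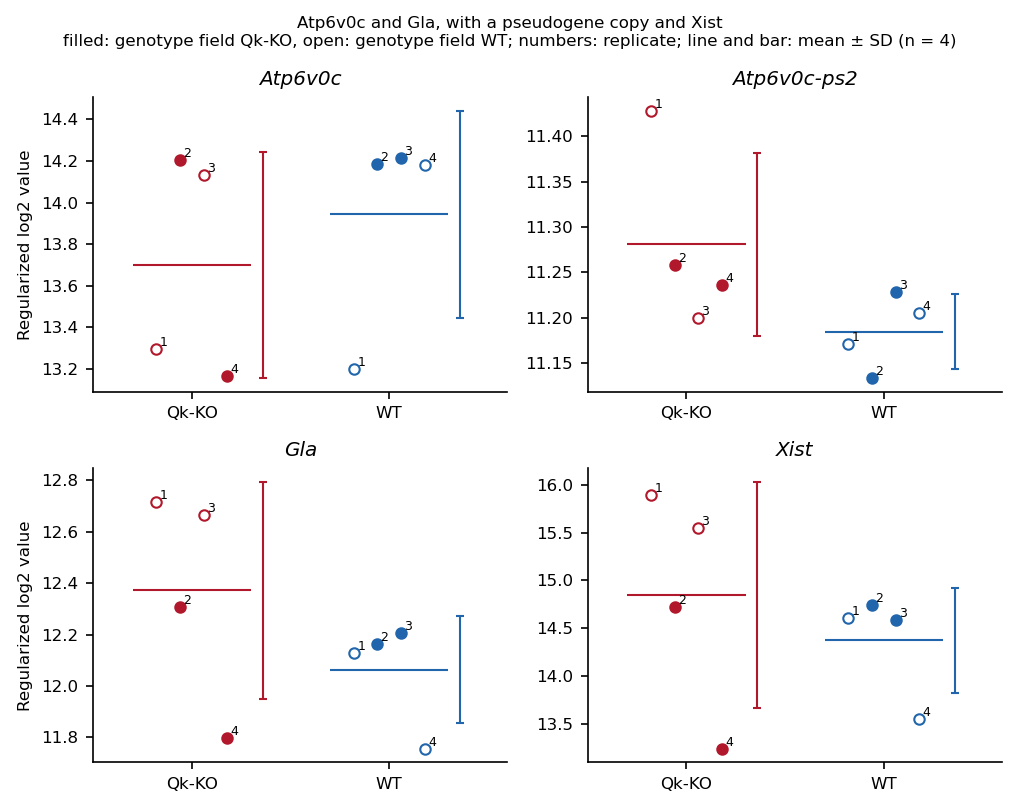
Regularized log2 values (vertical axes, scaled separately) of Atp6v0c, its pseudogene copy, Gla and Xist in the Qk-KO libraries (left, red) and the WT libraries (right, blue), with mean ± SD and n = 4 each; filled points have the genotype field Qk-KO and open points WT. Atp6v0c was low in Qk-KO 1, Qk-KO 4 and WT 1 with no such split in the copy, and Gla and Xist were both highest in Qk-KO 1 and 3 and lowest in Qk-KO 4 and WT 4.

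By the genotype field, none of the 34 genes passed limma's test and neither did any of the 22546 genes, and 0 of the 34 had an unadjusted p under 0.05 (background 2.67%). The groups did not overlap for 0 of the 34 (background 1.85%). Differences were above 0 for 13 and below 0 for 21 (49.3% of all genes tested), the same counts as by name, yet 18 of the 34 genes changed sign between the groupings. When the 2 labels were crossed in 1 fit, 0 of the 34 had an interaction that passed (smallest adjusted p 0.341, limma). Gla, Gnptg, Gusb and Atp6v1a had an unadjusted p under 0.05 there. The share over all genes was not computed for this interaction, so these 4 of 34 have no background and are not read as a result. In the 4 libraries whose labels do not contradict each other, Qk-KO 2 and 4 against WT 1 and 4, none of the 34 passed. There the difference was -0.39 for Atp6v0d2, -0.37 for Tpp1, -0.17 for Lamp1 and 0.15 for Atp6v1a.

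**Figure D4:**
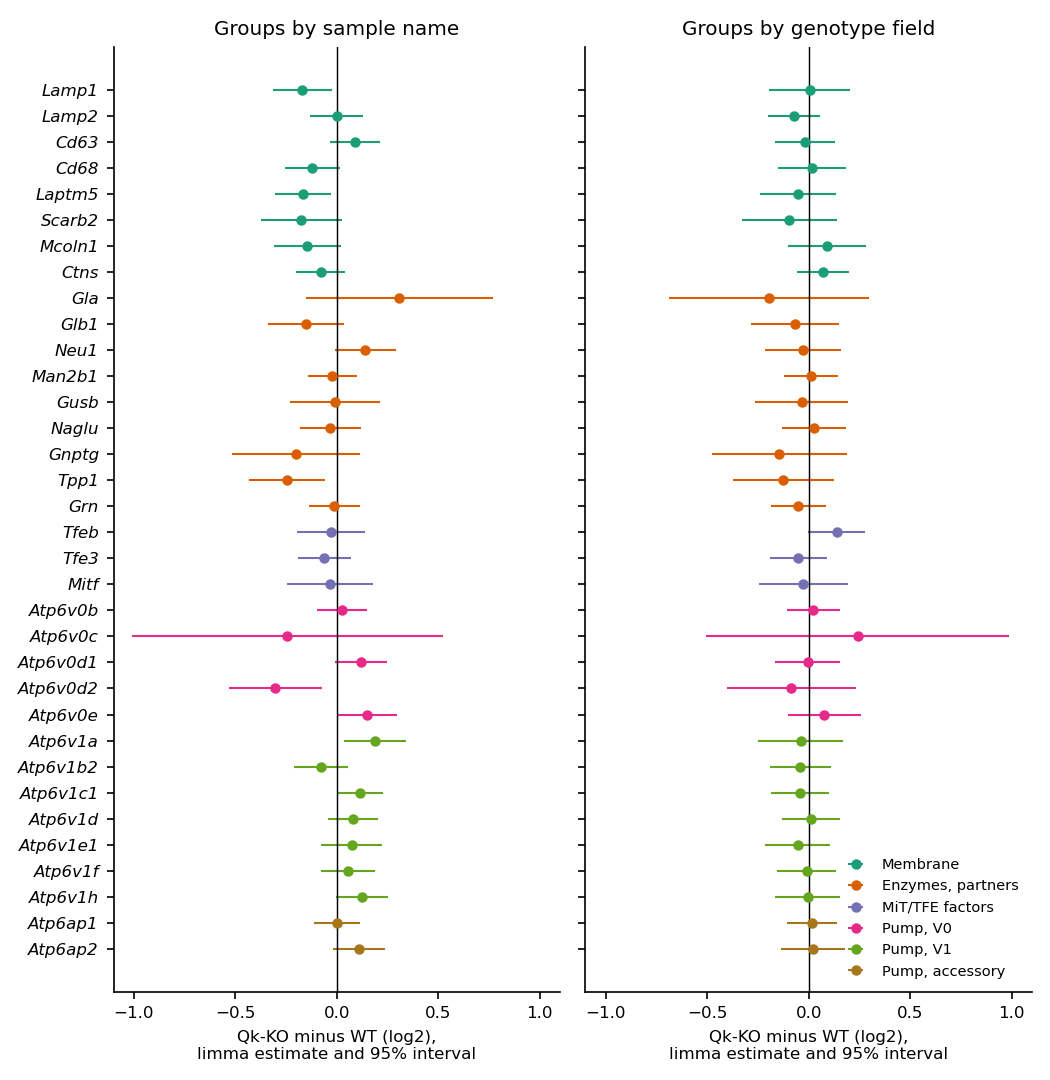
Difference Qk-KO minus WT (horizontal axis, log2) with its 95% interval from limma for each of the 34 genes (rows, by role), with groups by sample name on the left and by genotype field on the right. Most intervals lie within ±0.5, and V1 genes above 0 number 6 of 7 by name and 1 of 7 by the genotype field, the last count being 6 of 7 without Qk-KO 1 or after quantile normalization.

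The pathway holds further lysosomal genes that are not among the 34. Of 85 in the table, 81 were tested. With limma 0 of 81 passed, 36 lay above 0 and 45 below, and the median difference was -0.02. At an unadjusted p under 0.05 they numbered 5 of 81 higher and 8 of 81 lower, against 3.76% and 4.5% of all genes tested. The groups did not overlap for 5 of the 81 with Qk-KO higher (background 3.04% of all genes tested, 5.55% of genes at the level of the 34). They did not overlap for 7 with Qk-KO lower (background 2.7% and 3.98%). The second background holds genes at or above the lowest mean signal of the 34, 1489. Some of the 81 lay below it, Sgsh at 1450 and Tfec at 48.2 among them, so it is not matched to the 81. The 7 tested V-ATPase subunit genes outside the 34 had 2 differences above 0 and 5 below. The authors' deposited table called 3 of the 79 with an adjusted p (background 1.22%), all of them genes of lumenal proteins. Sgsh, the sulfamidase that degrades heparan sulfate, had 10.58, 10.65, 10.90 and 10.99 in Qk-KO libraries 1 to 4, against 9.97, 10.32, 10.21 and 10.02 in WT libraries 1 to 4. The deposited table has it higher in Qk-KO, at a log2 fold change of 0.66 and an adjusted p of 2.26e-04; limma's adjusted p was 0.255.

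Pla2g15, a lysosomal phospholipase, had 14.49, 14.49, 14.52 and 14.36 in Qk-KO libraries 1 to 4, against 14.12, 14.15, 14.21 and 14.07 in WT libraries 1 to 4. The deposited table gives the authors' log2 fold change as 0.34 and the adjusted p as 6.35e-05. Gm2a, the activator protein that presents a ganglioside to hexosaminidase, had 14.13, 14.05, 13.94 and 13.95 in Qk-KO libraries 1 to 4, against 14.27, 14.28, 14.33 and 14.27 in WT libraries 1 to 4. The authors' deposited table has it lower in Qk-KO (log2 fold change -0.27, adjusted p 0.00419). These 3, picked because the deposited table called them, are among the genes without overlap counted above. The difference by the genotype field was 0.17 for Sgsh, 0.0028 for Pla2g15 and -0.0015 for Gm2a. Limma called none of the 3.

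**Figure D5:**
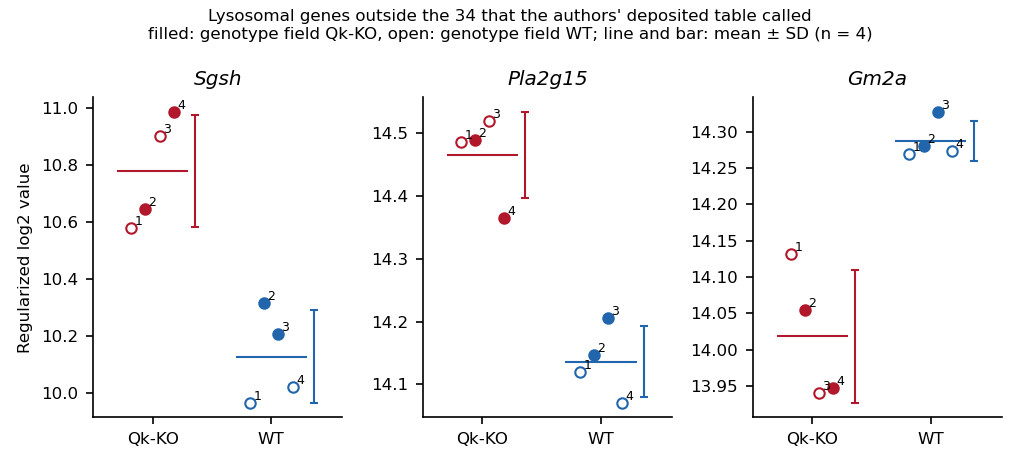
Regularized log2 values (vertical axes, scaled separately) of Sgsh, Pla2g15 and Gm2a in the Qk-KO libraries (left, red) and the WT libraries (right, blue), with mean ± SD and n = 4 each; filled points have the genotype field Qk-KO and open points WT. The Qk-KO libraries lie above all WT libraries for Sgsh and Pla2g15 and below them for Gm2a.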

How the data were processed

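Groups came from the sample names, and the genotype field gave a second grouping. Per the submitters' processing notes, the authors used FastQC, HISAT2, StringTie, DESeq2 and build mm10, with no versions. Annotation and strand handling were not given in the sources used here. Each library column deposited by the authors holds log2 values that behave like DESeq2's regularized logarithm. The authors' deposited mean is a depth-scaled signal, and per the file headers the table adds a log2 fold change, a test score, and p-values with and without adjustment. The table used here holds no counts per library, so the count test planned first was not run.

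Limma 3.58.1 in R 4.3.3 (trend, robust estimation) was run on the deposited log2 values, to which no pseudocount was added, over the 22546 genes that had reads and reached a log2 value of 0 in 4 libraries or more, with Benjamini-Hochberg adjustment over all of them and a threshold of 0.05. The procedure was tested on simulated data. The 19497 genes without reads were left out. Size factors were read from genes with reads in 1 library. Shrinkage understates changes of genes with few reads. TPM was computed from the deposited mean signal and exon lengths of GENCODE M21 (98.9% of identifiers matched, without version), so it has no error estimate and depends on the length used. Overlaps, copies and gene positions came from that annotation, on the mm10 sequence.

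Genes given in full were the 3 highest and 3 lowest by the authors' fold, the 3 with the smallest p by genotype field, the ends of the TPM range, the 3 factors and the pairs Lamp1 and Lamp2 and Atp6v0d1 and Atp6v0d2. Members and lists were chosen with earlier results of these data known. Alternatives were leaving out each library, no filter, median centring, quantile normalization, limma without trend and robust estimation, the genotype field, matching libraries, a replicate block and the authors' table.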

Additional observations from a re-analysis of the deposited data

Results flagged for a closer look

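Among 80 groups of 4 libraries checked for the 34 genes and 6 further lysosomal genes, 6 held a library far from the other 3, by a gap of more than 0.829 of the group's range; chance flags about 1 group in 20. Atp6v0c in WT 1 was 13.2, against 14.18 to 14.22 in the other WT libraries. Cd63 in WT 4 was 14.24, against 14.30 to 14.31 in the other WT libraries. Mitf in WT 4 was 12.09, against 12.36 to 12.41 in the other WT libraries. Glb1 in Qk-KO 3 was 12.97, against 13.12 to 13.15 in the other Qk-KO libraries. Atp6v1e1 in Qk-KO 1 was 12.18, against 11.91 to 11.95 in the other Qk-KO libraries. Tfec, an MiT/TFE factor gene outside the 34, was 4.93 in Qk-KO 2, against 5.32 to 5.39 in the other Qk-KO libraries.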

How the results depend on the processing

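By name, no alternative run called any of the 34 genes, and the authors' deposited table called 3 of the other lysosomal genes. Median centring moved the median difference of the 34 to 0.0597 and the count below 0 to 12, and 9 genes changed sign. It left 33% of all genes tested below 0. Grouping by the genotype field gave 6 pump genes and 1 V1 gene above 0 and 4 membrane genes below 0. With each library left out in turn, the count below 0 was 17 to 22, pump genes above 0 were 9 to 11, membrane genes below 0 were 6 to 7, V1 genes above 0 were 6 to 6, and the median was -0.03 to 0.01. By the genotype field, quantile normalization gave 13 genes below 0, 12 pump genes and 6 V1 genes above 0, and median centring gave 3 pump genes and 0 V1 genes above 0. Leaving out each library there gave 12 to 23 genes below 0, 4 to 12 pump genes above 0, 2 to 6 membrane genes below 0 and 0 to 6 V1 genes above 0. Without Qk-KO 1 these were 12 genes below 0, 12 pump genes and 6 V1 genes above 0, and without Qk-KO 4 2 membrane genes were below 0. The cause of these moves was not tested. Deviations of same-numbered libraries had r of 0.04, 0.15, 0.25 and 0.46; as 1 of them is not over 0.1 and the labels give no shared source, the numbers were not taken as pairs, and not every library correlated best with its own number. With a replicate block, 2924 genes had an unadjusted p under 0.05 against 1863 without it, 1 gene passed as without it, 0 of the 34 genes were called, 21 lay below 0 and 0 changed sign. The role counts, the further lysosomal genes named and all alternatives by genotype field were added after seeing the data. Over all genes tested, limma by name called 1, against 0 to 7 with each library left out, 3 in the matching libraries and 173 in the authors' deposited table. The lowest mean signal of the 34 was 1489, for Atp6v0d2. Depth separated the named groups, and its part in the differences was not tested.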
